A study of Mus musculus with 8 samples.

Results

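The genes of de novo fatty acid synthesis were followed in the lungs of mice that carry an Scgb3a2 transgene and of wild-type mice. The 10 genes were Fasn, Acly, Acaca, Scd1, Scd2, Srebf1, Elovl6, Me1, Thrsp and Pnpla3, and their probes were those that carried one of these symbols in the annotated matrix. This rule found 14 probes of 9 genes among 41174 array probes and 20920 gene symbols, and Scd1 was the gene without a row in that matrix. All mice were labelled as C57BL/6 males of 8 to 10 weeks that had received no treatment, and the transgene had been injected into C57BL/6NCr eggs. The transgenic mice carried a mouse Scgb3a2 cDNA behind the human SP-C promoter, which is active in alveolar type II cells, and they came from 1 founder line, so that effects of the transgene and of its integration site cannot be told apart. There were 4 mice of each genotype, named here WT1 to WT4 and TG1 to TG4. On each of 8 arrays the RNA of a single lung (Cy5) was hybridized against a pool of all samples (Cy3), with no dye swap.

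De novo lipogenesis turns citrate exported from mitochondria into fatty acids. Acly cleaves the citrate to acetyl-CoA, Acaca carboxylates acetyl-CoA to malonyl-CoA, and Fasn builds palmitate from both, with NADPH that Me1 helps to supply. Elovl6 lengthens palmitate, and Scd1 and Scd2 put a double bond into the saturated chains. Srebf1 encodes SREBP-1, the transcription factor that drives these genes when insulin and carbohydrate are plentiful. Thrsp (Spot 14) is a small lipogenic protein that responds to thyroid hormone, and Pnpla3 (adiponutrin) is a lipid droplet protein that SREBP-1 induces. In lung, type II cells use the pathway to make the saturated phosphatidylcholine of surfactant, while fat cells and airway cells express many of the same genes. In bulk lung RNA, fewer cells of a type and less RNA per cell cannot be told apart.

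The promoters of Fasn and Thrsp are shown because these were the only 2 of the 9 measured genes with a probe whose genotypes did not overlap, which was known when they were chosen. Each window runs from 250 bases before to 50 bases after a start annotated by RefSeq on GRCm38.p6, and is written 5′ to 3′ on the gene's strand. Capitals mark CCAAT or its reverse complement ATTGG, the letters that the factor NF-Y reads. Fasn lies on the minus strand at chr11:120824498-120824797, and Thrsp on the minus strand at chr7:97417501-97417800.
Fasn: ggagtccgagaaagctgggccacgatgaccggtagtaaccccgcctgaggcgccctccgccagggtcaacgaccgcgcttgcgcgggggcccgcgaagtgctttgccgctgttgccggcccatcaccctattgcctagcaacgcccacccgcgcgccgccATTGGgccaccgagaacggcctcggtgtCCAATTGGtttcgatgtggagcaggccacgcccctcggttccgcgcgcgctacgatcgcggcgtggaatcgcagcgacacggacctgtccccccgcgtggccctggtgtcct
Thrsp: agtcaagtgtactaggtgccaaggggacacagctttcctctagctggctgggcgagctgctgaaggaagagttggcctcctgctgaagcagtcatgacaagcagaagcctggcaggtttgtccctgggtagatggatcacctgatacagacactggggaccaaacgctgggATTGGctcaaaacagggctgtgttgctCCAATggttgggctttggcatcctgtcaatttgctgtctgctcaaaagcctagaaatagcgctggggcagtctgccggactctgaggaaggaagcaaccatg
The Fasn window held 3 matches, beginning 90, 62 and 59 bases before the start, and those at 62 and 59 overlap. The Thrsp window held 2, beginning 79 and 52 bases before the start. Of 32851 RefSeq promoter windows of this length, 37.4% held CCAAT on either strand, 11.7% held it at least 2 times and 3.37% at least 3 times. RefSeq windows were at hand for 8 of the genes, 11 windows in all, and 7 of these 11 held CCAAT. The sterol regulatory element in the form TCACNCCAC was in 0 of the 11 windows and in 1.24% of all windows, and the E-box CACGTG was in 0 of the 11 and in 7.15% of all, both strands searched. The GC box GGGCGG was in 5 of the 11 windows and in 35.7% of all. These are matches of letters and not binding sites.

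Values are log2 ratios of lung over pool, normalized within each array, and spots that the scanner software flagged as outliers were left out. A probe was tested where it was well above background in the lung channel on at least 4 arrays and had at least 2 values per genotype, which 32653 probes met, among them 13 of the 14 member probes. Median lung signals ran from 204 to 278 intensity units over a local background of 55.5 to 59 on the 8 arrays, with 0 saturated spots, and between 1.72% and 6.46% of spots were flagged. Scgb3a2 itself, the gene overexpressed, stood at 0.0061, -0.39, 0.58 and -0.56 in WT1 to WT4 and at 1.26, 0.47, 0.70 and 0.74 in TG1 to TG4. Its log2 difference was 0.88 ± 0.24 (SE), and it was higher in the transgenic lung on 4 of 4 slides, although WT3 lay above TG2. All 11 type II, all 4 club cell and all 5 endothelial marker genes measured were well above background on all 8 arrays. The arrays lay on 4 slides, each with 1 lung of either genotype, and were scanned on 2 days.

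**Figure D1:**
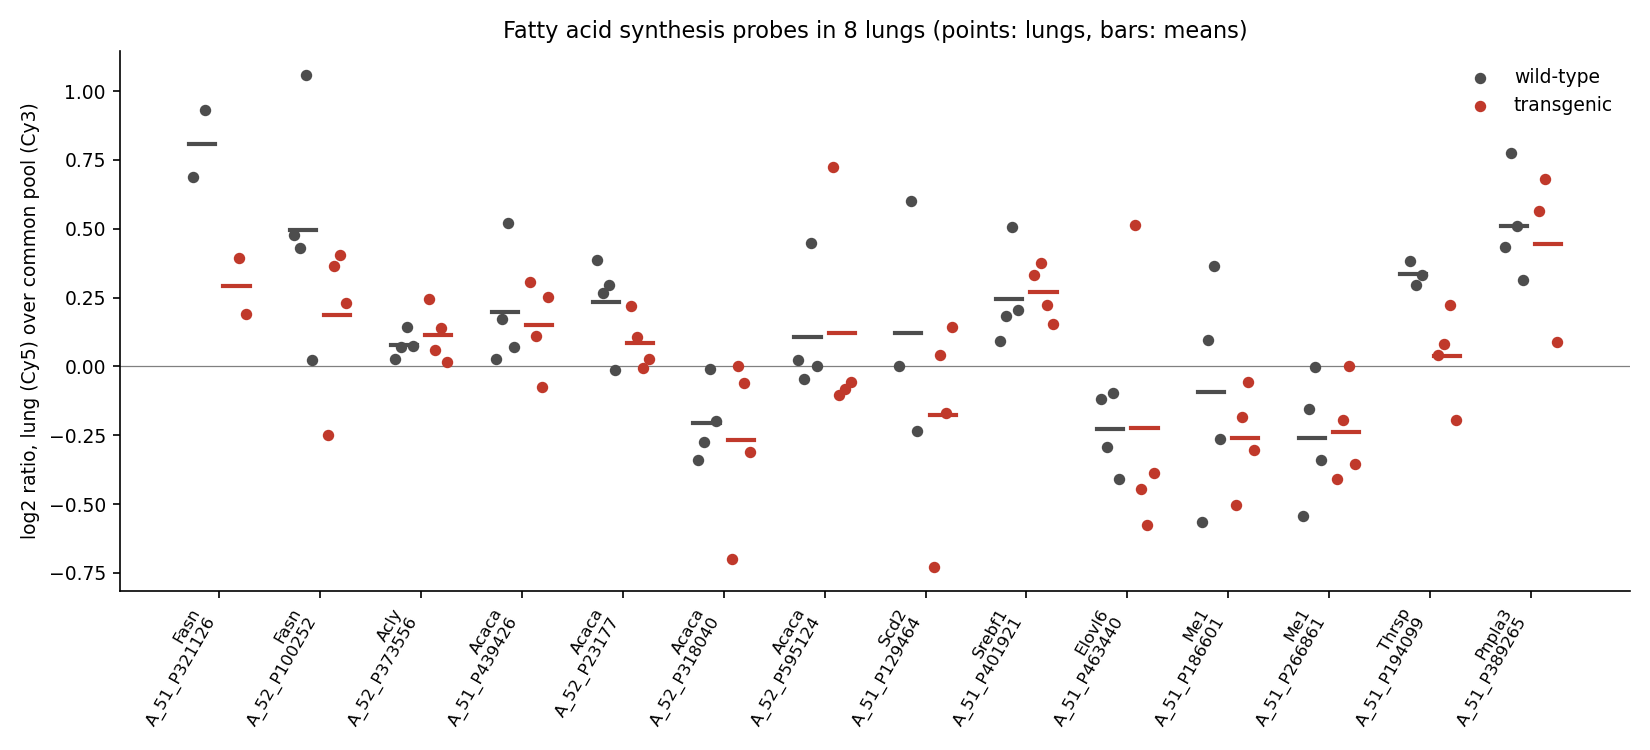
Log2 ratio of each lung over the pool for the 14 member probes, with wild-type lungs in grey, transgenic lungs in red, 1 point per lung and a bar at the genotype's mean. Points are missing where the spot was flagged, and the genotypes do not overlap for Thrsp and for the Fasn probe A_51_P321126, which kept 2 lungs of each genotype.

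No fatty acid synthesis gene passed the test between genotypes. Thrsp stood 1.23-fold lower in the transgenic lungs, and its genotypes did not overlap. The brighter Fasn probe stood 1.43-fold lower, without overlap but over only 2 lungs of each genotype, a log2 difference of -0.52 that was -0.29 with flagged spots kept and -0.24 on the authors' matrix, where the genotypes overlapped, as they did for the other Fasn probe at -0.31. The regulator Srebf1 had a log2 difference of 0.025 ± 0.11 (SE). Of the 13 probes tested, 9 were lower in the transgenic lungs and 4 were higher, with a median log2 difference of -0.065, while 49.6% of all 32653 probes were lower and their median was 0.00099. Without WT3, 6 of the 12 probes left to test were lower, with a median of -0.0076. By limma, each p-value sets the difference against the spread between these single mice, with each probe's variance drawn toward that of all probes. By the methods' t-test, without that step, the unadjusted p was 0.0815 for the brighter Fasn probe and 0.0360 for Thrsp. With limma, 0 of 13 had an adjusted p under 0.05, as had 0% of all probes. At an unadjusted p under 0.05, 2 of 13 were lower against 0.974% of all probes, and 0 were higher against 1.12%. The genotypes did not overlap, with transgenic lower, for the same 2 probes, against 0.903% of all probes, a share that depends on the number of values left. It was 17.8% of the 225 probes with 2 values in each genotype, as the Fasn probe had, 1.48% of the 810 with 3 wild-type and 4 transgenic values, as Thrsp had, and 0.546% of the 29502 with all 8, so nothing is read from the lack of overlap for Fasn. The count lower at an unadjusted p under 0.05 was 0 or 1 under 17 of 27 alternatives, among them 0 with normexp offset 0, with the sample channel alone, with the replicate block and without TG4. A fit with a term for the slide gave 2 of 13, against 1.79% of all probes, but the Fasn probe then rests on 1 lung of each genotype and is no check of its call. With the probes of each gene averaged before the fit, 1 of 8 genes was lower at an unadjusted p under 0.05 by limma, beside 0.965% of 18443 genes tested, and Fasn was at -0.33 with an unadjusted p of 0.136. With each array centred on its median in place of loess, 13 of 13 member probes were lower, as were 64.4% of all probes.

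**Figure D2:**
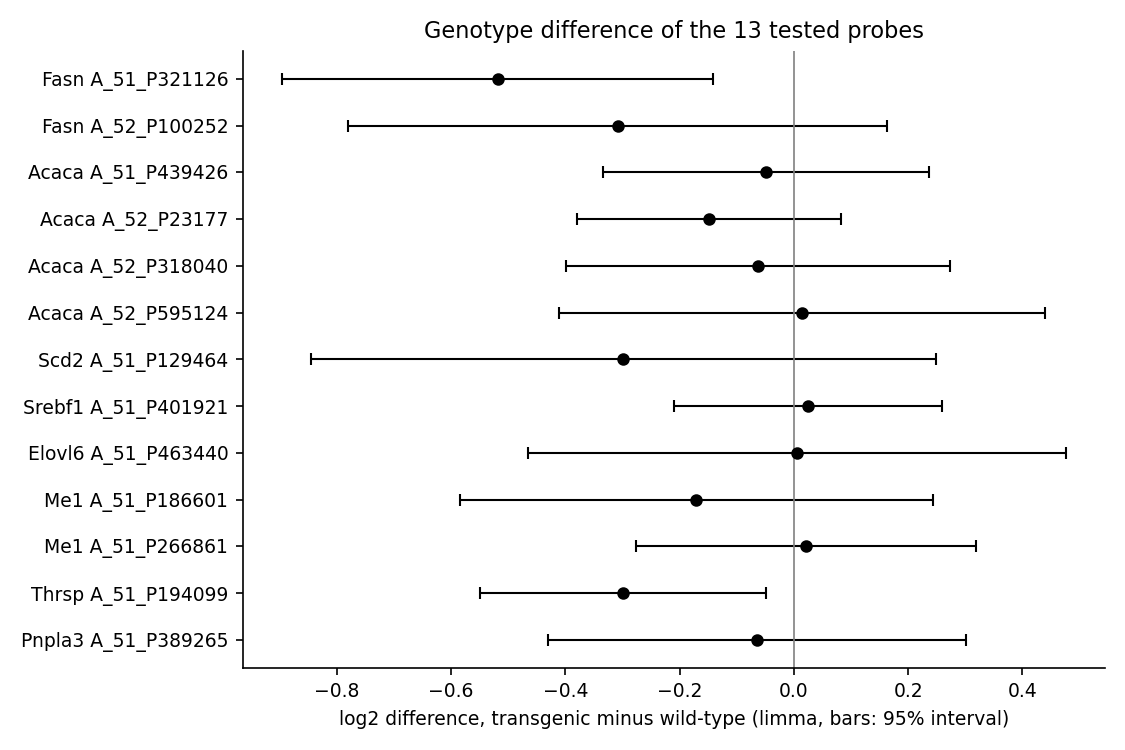
Log2 difference between genotypes, transgenic minus wild-type, for the 13 tested member probes (points) with limma's 95% interval (bars) before adjustment. The intervals of the Fasn probe A_51_P321126 and of Thrsp end below 0, at -0.14 and -0.049, and the other 11 include 0.

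Fasn, the enzyme that assembles palmitate, was read by 2 probes of the same transcript. The brighter probe, A_51_P321126, gave raw signals of 2653 to 14655 and log2 ratios of 0.69 in WT1, 0.93 in WT3, 0.39 in TG3 and 0.19 in TG4. On the other 4 arrays its spot was flagged and left out, so the fit used 2 lungs of each genotype. Both wild-type values lay above both transgenic ones, and the log2 difference was -0.52 ± 0.16 (SE), with a 95% interval of -0.90 to -0.14. The unadjusted p was 0.0184 and the adjusted p 1.00 by limma, and an exact permutation of 2 against 2 gave 0.333, the smallest p it allows. With the slide as a block the log2 difference was -0.74, from the slide that holds WT3 and TG4, the only slide with values in both genotypes. With the flagged spots kept, the ratios were 0.66, 0.60, 0.90 and 0.20 in WT1 to WT4 and -0.046, 0.70, 0.40 and 0.14 in TG1 to TG4. The genotypes then overlapped, TG2 lying above WT1, WT2 and WT4, and the log2 difference was -0.29 ± 0.18 (SE), with an unadjusted p of 0.136 by limma. The authors' matrix gave 0.76, 0.54, 0.58 and 0.028 for WT1 to WT4 and 0.044, 0.61, 0.38 and -0.095 for TG1 to TG4. These overlapped as well, with a log2 difference of -0.24, an unadjusted p of 0.269 by limma and an exact permutation p of 0.314. The dimmer probe, A_52_P100252, was unflagged on all arrays at raw signals of 254 to 802. Its ratios were 0.48, 0.43, 1.06 and 0.022 in WT1 to WT4 and -0.25, 0.37, 0.41 and 0.23 in TG1 to TG4. WT3 was the highest and TG1 the lowest, the genotypes overlapped, and the log2 difference was -0.31 ± 0.21 (SE) with an unadjusted p of 0.167 by limma. It was -0.12 without WT3, -0.16 without TG1 and -0.47 without WT4. The dimmer probe differed by -0.78 on the day that held WT1, WT3, TG1 and TG4, and by 0.16 on the other day.

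Thrsp, the Spot 14 protein, gave ratios of 0.38, 0.30 and 0.33 in WT2 to WT4 and of 0.041, 0.083, 0.22 and -0.19 in TG1 to TG4. Its spot on WT1 was flagged. All 3 wild-type lungs lay above all 4 transgenic lungs, with a gap from 0.30 in WT3 to 0.22 in TG3. The log2 difference was -0.30 ± 0.11 (SE), a 1.23-fold lower level, with a 95% interval of -0.55 to -0.049. By limma the unadjusted p was 0.0327 and the adjusted p 1.00, and the exact permutation test gave 0.0571. The transgenic lung was the lower one on 3 of the 3 slides with a pair, by 0.11 to 0.49, the fit with the slide as a block gave -0.30 as well, and the difference was -0.37 on one scan day and -0.20 on the other. With the flagged spot kept, WT1 stood at 0.67 and the genotypes still did not overlap. The authors' matrix gave 0.64, 0.51, 0.32 and 0.44 for WT1 to WT4 and 0.095, 0.12, 0.24 and -0.082 for TG1 to TG4, again without overlap. On these 4 against 4 values the exact permutation p was 0.0286, the smallest that 4 against 4 allow. Leaving out TG4, the lowest lung, gave a log2 difference of -0.22, and leaving out TG3 gave -0.36. By limma the unadjusted p of Thrsp was 0.0878 without TG4, 0.0896 without WT2 and 0.0688 without WT4. It was 0.0613 with normexp offset 0, 0.0861 with the sample channel alone and 0.0605 with the replicate block.

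Scd2, the stearoyl-CoA desaturase that is widespread outside liver, had the largest standard deviation within genotype among the 13 tested probes, with flagged spots left out. Its ratios were 0.00026, 0.60 and -0.23 in WT1, WT3 and WT4 and -0.73, 0.043, -0.17 and 0.14 in TG1 to TG4, the spot on WT2 being flagged. WT3 was the highest and TG1 the lowest, and the genotypes overlapped. The log2 difference was -0.30 ± 0.24 (SE), with a 95% interval of -0.85 to 0.25. A fit that took the slide as a block gave -0.37 ± 0.16 (SE), with an unadjusted p of 0.0500007 by limma. Without WT3 it was -0.060, and without TG1 -0.12, whereas without WT4 it was -0.48, without TG4 -0.41 and with the sample channel alone -0.54. The unadjusted p of these last 3 was 0.0954, 0.131 and 0.102 by limma.

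Scd1, the main stearoyl-CoA desaturase of liver and fat, was outside the rule, and its probe was found by its transcript accession only. The spot was bright, with raw signals of 1871 to 17457, but it was flagged on 7 of 8 arrays, so no comparison was made with flagged spots left out. With them kept, Scd1 stood at -0.71, 0.15, 0.94 and -0.51 in WT1 to WT4 and at -1.78, 0.46, -0.11 and -0.90 in TG1 to TG4. WT3 was again the highest and TG1 the lowest, and the genotypes overlapped. The log2 difference was -0.55 ± 0.46 (SE), and TG1 was the lung whose spot was not flagged. Acly, the citrate lyase, was read inside the rule by a cDNA clone's probe that was well above background on 3 of 8 arrays and was not tested. Its ratios, near background, ran from 0.028 to 0.14 in wild-type and from 0.015 to 0.25 in transgenic lungs. A brighter probe of the Acly transcript had no symbol in the matrix and was flagged on 7 of 8 arrays. With flagged spots kept, it gave -0.21, 0.11, 0.16 and -0.34 in WT1 to WT4 and -0.48, -0.15, -0.18 and -0.094 in TG1 to TG4. These overlapped, with a log2 difference of -0.16 ± 0.14 (SE).

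**Figure D3:**
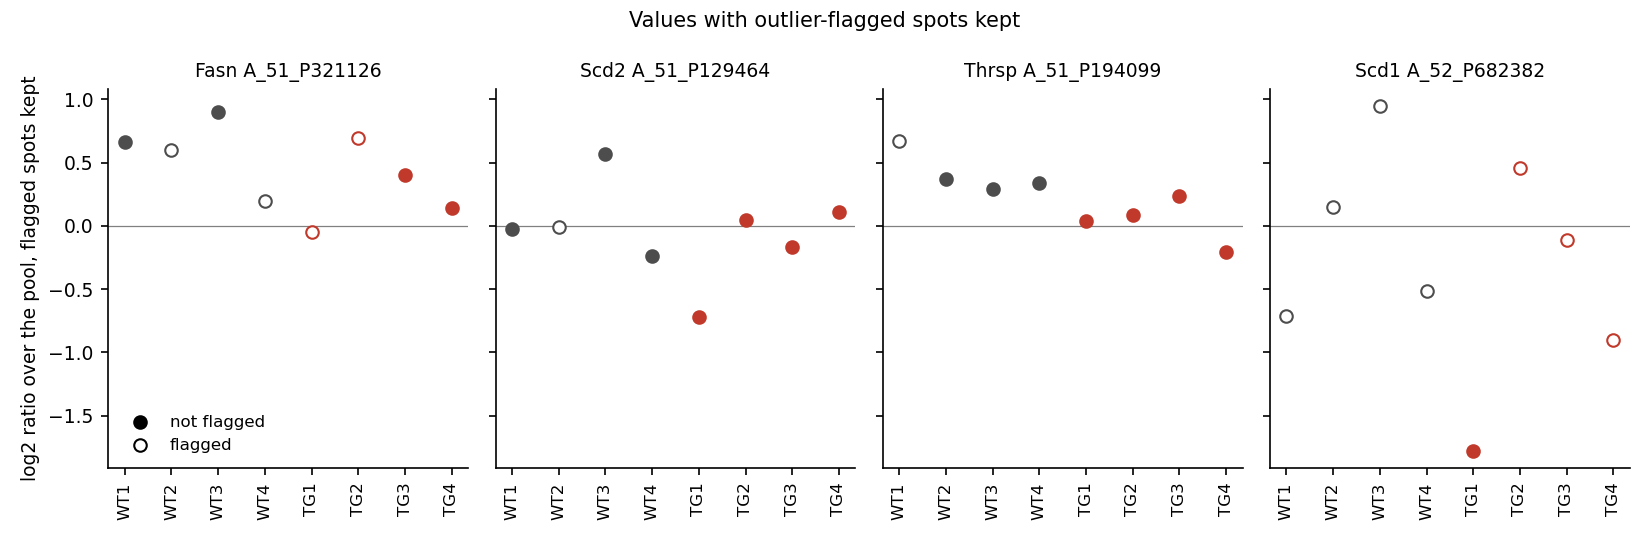
Log2 ratio over the pool by lung with outlier-flagged spots kept, for 1 probe each of Fasn, Scd2, Thrsp and Scd1, where filled points were not flagged, open points were flagged, wild-type is grey and transgenic red. The Thrsp values of the genotypes stay apart, those of Fasn, Scd2 and Scd1 overlap, and 7 of the 8 Scd1 points were flagged.

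Srebf1, the transcription factor gene, stood at 0.092, 0.18, 0.51 and 0.21 in WT1 to WT4 and at 0.33, 0.38, 0.22 and 0.15 in TG1 to TG4. All 4 transgenic values lay within the wild-type range. The log2 difference was 0.025 ± 0.11 (SE), with a 95% interval of -0.21 to 0.26. The probe was bright, at raw signals of 3149 to 5991, and was unflagged on all arrays. Its small positive sign turned to -0.045 with median-centring.

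Acaca, the carboxylase of the committed step, was read by 4 probes. The brightest, A_51_P439426, stood at 0.028, 0.17, 0.52 and 0.070 in WT1 to WT4 and at 0.31, 0.11, -0.075 and 0.25 in TG1 to TG4. The genotypes overlapped, with a log2 difference of -0.049 ± 0.13 (SE). The other 3 probes, A_52_P23177, A_52_P318040 and A_52_P595124, differed by -0.15, -0.063 and 0.014 on the log2 scale, and their genotypes overlapped too. With single lungs left out, A_52_P23177 ranged from -0.23 to -0.097. Leaving out TG1 turned A_52_P318040 to 0.082 and A_52_P595124 to -0.19. Over the 8 lungs the Pearson r between pairs of Acaca probes was 0.37 to 0.69 among A_51_P439426, A_52_P23177 and A_52_P595124, and -0.55 to -0.12 between each of these and A_52_P318040. That probe was dim, at raw signals of 100.5 to 175 over a background of 53.5 to 62. In TG1, A_52_P595124 was at 0.72 and A_52_P318040 at -0.70. Between the 2 probes of Me1, the malic enzyme, r was 0.89.

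The brighter Me1 probe, A_51_P186601, stood at -0.56, 0.096, 0.37 and -0.26 in WT1 to WT4 and at -0.50, -0.18, -0.057 and -0.30 in TG1 to TG4. The wild-type lungs spanned both the highest and the lowest value. The log2 difference was -0.17 ± 0.19 (SE) for this probe and 0.021 ± 0.13 (SE) for the other. For the brighter probe it was -0.33 without WT1, -0.018 without WT3 and -0.28 with normexp fitted on all spots, and the lowest unadjusted p of these was 0.0716 by limma, without WT1.

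Elovl6, the elongase that makes stearate, stood at -0.12, -0.29, -0.095 and -0.41 in WT1 to WT4, at 0.52 in TG1, and at -0.45, -0.58 and -0.39 in TG2 to TG4. The genotypes overlapped, with a log2 difference of 0.0050 ± 0.21 (SE). Without TG1 the difference was -0.24, and with median-centring -0.094. Pnpla3 stood at 0.43, 0.78, 0.51 and 0.31 in WT1 to WT4 and at 0.56, 0.68 and 0.087 in TG1, TG2 and TG4, its TG3 spot being flagged. TG4 was the lowest and the other transgenic lungs lay inside the wild-type range. The log2 difference of Pnpla3 was -0.065 ± 0.16 (SE).

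The members differed widely in how much they varied among lungs of 1 genotype. The standard deviation within genotype of Scd2 was 0.41, which is larger than that of 96.9% of all tested probes. Those of the dimmer Fasn probe (0.37), Elovl6 (0.37), the Acaca probe A_52_P595124 (0.33) and the brighter Me1 probe (0.32) stood between the 90.2 percentile (Me1) and the 95 percentile (Fasn). Srebf1 was at 0.15 and Thrsp at 0.13, the 32.9 and 22.5 percentiles. The median over the 13 probes was 0.25 against 0.18 over all tested probes. WT3 held the highest value for 6 of the 13 probes and the lowest for 0. The lowest value was in WT1, TG1 and TG4 for 3 probes each, and these lungs held the highest for 1, 2 and 0.

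**Figure D4:**
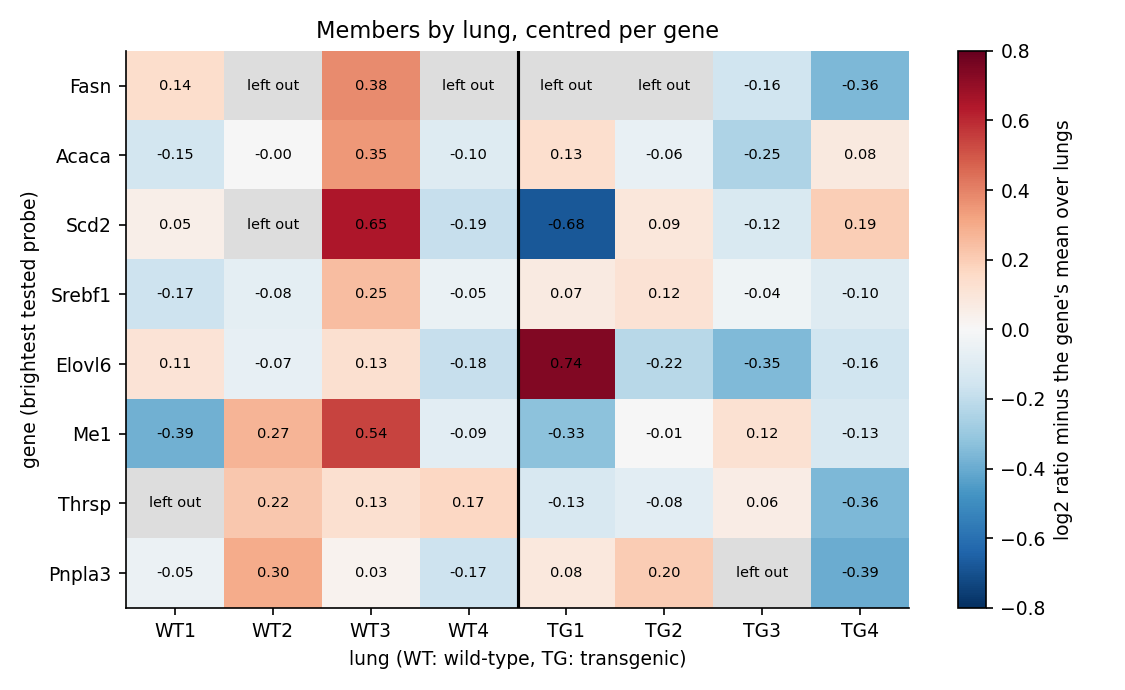
Log2 ratio of the brightest tested probe of 8 members in each lung, minus that gene's mean over the lungs, with red above and blue below the mean and grey where the spot was flagged and left out. WT3 is above the mean for all 8 genes, and TG1 is low for Scd2 and high for Elovl6.

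Whether the enzymes followed Srebf1 from lung to lung was asked with the brightest tested probe of each gene. Pearson's r of Srebf1 with 6 other members ran from 0.15 (Thrsp) to 0.67 (Acaca), with a median of 0.33, and was positive for all 6. For Acaca, over 8 lungs, r was 0.67 with an exact permutation p of 0.0656, adjusted over the 6 relations to 0.393, and Spearman's rho was 0.43 with an exact p of 0.299, adjusted to 0.791. Without the 2 lungs farthest from the median of Srebf1, r fell to 0.40. For Me1, r was 0.57 with an exact permutation p of 0.141, adjusted to 0.424, rho was 0.55 with an exact p of 0.171, adjusted to 0.791, and r without those 2 lungs was 0.0069. With Scd2, r was 0.31 over 7 lungs with an exact permutation p of 0.500, adjusted to 0.625, and rho was 0.21 with an exact p of 0.662, adjusted to 0.992. Without the 2 lungs r turned to -0.90 over the lungs left, so the sign rests on them. For Elovl6, Thrsp and Pnpla3, r was 0.27, 0.15 and 0.36, and the adjusted exact permutation p was 0.625, 0.740 and 0.625. The rho values were 0.048, 0 and 0.39, with adjusted exact permutation p of 1, 1 and 0.791. Of the 6 relations, 0 had a permutation p under 0.05. With median-centring, r was 0.85 for Scd2 and 0.82 for Me1, each with an adjusted exact permutation p of 0.05, and -0.47 for Elovl6. The brighter Fasn probe had 4 values and was not related to Srebf1.

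The mean of the 8 members, each centred on its own mean, was -0.064, 0.11, 0.31 and -0.088 in WT1 to WT4 and -0.015, 0.0057, -0.11 and -0.15 in TG1 to TG4. The genotypes overlapped, and WT3 stood highest. The mean of 19 cholesterol synthesis genes, the other branch that SREBP factors drive, was -0.13, 0.080, 0.30 and -0.18 in WT1 to WT4 and -0.12, 0.052, 0.023 and -0.019 in TG1 to TG4. As a description over these 8 lungs, r between both means was 0.81 and rho 0.64, and r without the 2 farthest lungs was 0.38. The type II marker mean was 0.21, 0.22, 0.83 and -0.38 in WT1 to WT4 and -0.59, 0.0091, 0.0013 and -0.25 in TG1 to TG4. It followed the members at r 0.76 and rho 0.64, and at r 0.64 without the 2 farthest lungs. For adipocyte markers r was 0.31 and rho 0.19, and for fatty acid oxidation and fasting genes r was 0.071 and rho 0.36. After removal of the scan day means, r was 0.81 with cholesterol synthesis and 0.76 with the type II markers, and after removal of the genotype means it was 0.86 and 0.69. The lungs share the pool and the normalization of their arrays, and WT3 lies at the top of both relations. What the relations rest on was not tested.

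**Figure D5:**
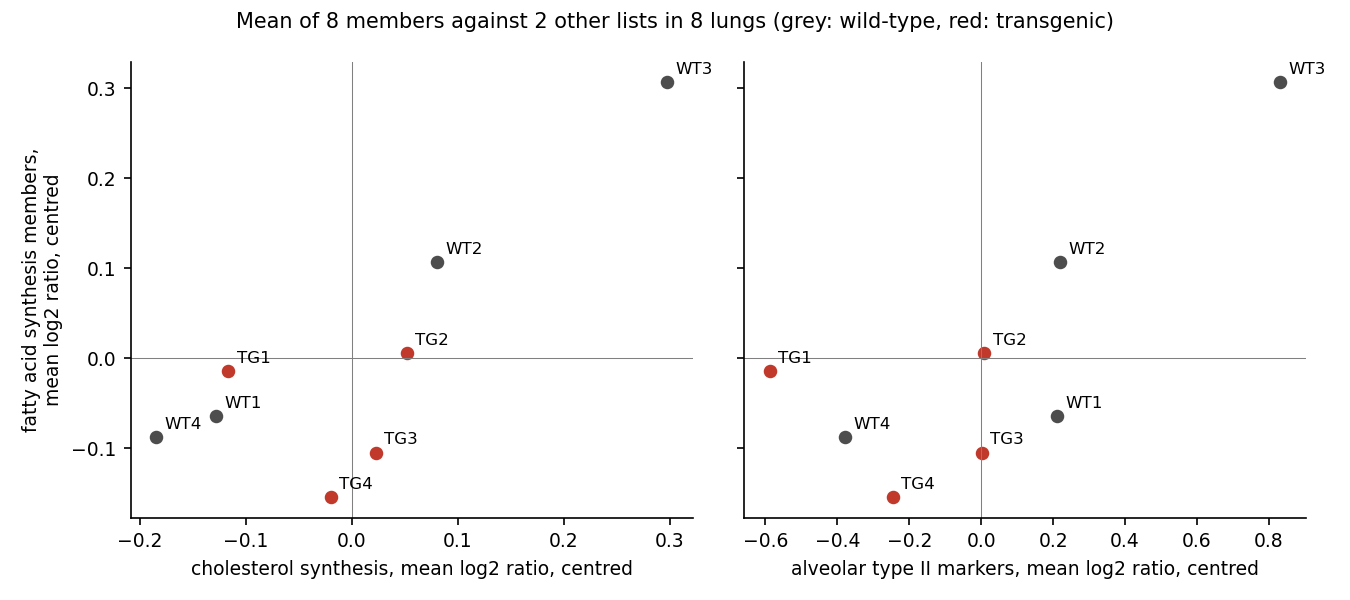
Centred mean log2 ratio of the 8 members (vertical) against that of cholesterol synthesis genes and of alveolar type II markers (horizontal), 1 point per lung, with wild-type in grey and transgenic in red. WT3 is the highest lung on all 3 measures, and r is 0.81 and 0.76.

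Outside the members, the 5 genes whose brightest probe with values on all 8 arrays followed the members' mean most closely were Rnf5, Alad, Fam83b, Fam190a and Ppp1r3a, out of 16111 ranked. Their Pearson r over the 8 lungs ran from 0.94 to 0.97. Rnf5, a ubiquitin ligase, had r 0.97 and stood at 0.36 in WT3 and between -0.054 and 0.22 in the other lungs. Such values are the top of a ranking and are given without a test.

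Against the pool, 6 of the 13 member probes were above and 2 below 0 over all 8 arrays at an adjusted p under 0.05 by limma, beside 30.2% and 28.7% of all probes. The pool held the same amount of RNA from each of the lungs on these 8 arrays. A mean over all arrays is thus set by the design and gives no level of expression. These counts are therefore no result about the members. No dye was swapped, and the cause of a shift shared by all arrays was not tested. Pnpla3 stood at a mean log2 ratio of 0.48 ± 0.23 (SD, n = 7) and above 0 in 7 of 7 lungs. Srebf1 stood at 0.26 ± 0.14 (SD, n = 8) and above 0 in 8 of 8, but with median-centring at 0.086, with an adjusted p of 0.246 by limma. Those below were an Acaca probe, at -0.24 ± 0.23 (SD, n = 8), and the dimmer Me1 probe, at -0.25 ± 0.19 (SD, n = 8).

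Lists of genes around the pathway also held 0 probes with an adjusted p under 0.05 by limma. They and the members were chosen with earlier results of these data known, so their counts are a description only. In carbon and NADPH supply, 9 of 12 probes were lower, the median log2 difference was -0.058 and 0 probes had an unadjusted p under 0.05, beside 2.09% of all probes. Acacb, the mitochondrial carboxylase, was lowest among its genes at -0.15 and Acss2, which makes acetyl-CoA from acetate, highest at 0.032. In elongation and desaturation, 11 of 13 probes were lower with a median of -0.058, and 1 had an unadjusted p under 0.05. That was a probe of Elovl5, an elongase of polyunsaturated chains, at -0.27 ± 0.12 (SE), or -0.18 without WT1, whereas the brightest Elovl5 probe was at -0.041 ± 0.14 (SE). By the brightest probes Elovl7 (-0.16) and Elovl1 (0.12) were the ends of that list. Of 30 glycerolipid assembly probes 19 were lower, with a median of -0.098, and Lpin1, a phosphatidate phosphatase, by its brightest probe gave 0.98, 0.88, 0.42 and -0.13 in WT1 to WT4 and -0.33, -0.040, -0.054 and 0.62 in TG1 to TG4. Lpin1 overlapped between genotypes, with a log2 difference of -0.49 ± 0.25 (SE), and another Lpin1 probe at -0.36 ± 0.15 (SE) was the 1 with an unadjusted p under 0.05. The highest of that list was Mogat1 at 0.20.

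Among 24 probes of lipogenic regulators, 15 were lower with a median of -0.018. Usf1, an E-box factor that acts on lipogenic promoters, stood at -0.030, 0.021, -0.100 and 0.052 in WT1 to WT4 and at 0.39, 0.22, 0.15 and 0.18 in TG1 to TG4. The genotypes did not overlap, transgenic being higher, beside 1.07% of all probes. The log2 difference of Usf1 was 0.25 ± 0.097 (SE), where the unadjusted p was 0.0257 and, by limma over all probes, the adjusted p was 1.00. Insig1, which holds SREBP in the endoplasmic reticulum and is itself a target, differed by -0.17 ± 0.19 (SE), or -0.016 without WT3. In cholesterol synthesis 24 of 38 probes were lower, with a median of -0.033, and 0 had an unadjusted p under 0.05 without a slide block. Its ends were Pmvk at -0.36 and Hsd17b7 at 0.21. In fatty acid oxidation and fasting 9 of 22 probes were lower, with a median of 0.031. Pdk4, a kinase that rises with fasting, had a log2 difference of -0.66 ± 0.31 (SE), or -0.39 without WT1, and Cpt1a, which brings fatty acids into mitochondria, one of 0.21 ± 0.14 (SE), or 0.11 without WT3. The ends of the other lists also moved with single lungs, to -0.069 for Acacb and -0.10 for Acss2 without WT1, -0.010 for Elovl7 without TG1, 0.038 for Elovl1 without TG2, 0.078 for Mogat1 without WT2 and 0.12 for Hsd17b7 without WT1.

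Markers of other cell types are given beside Fasn and Thrsp. These lists were chosen with earlier results of these data known, so their counts describe these lungs and are no independent support. Of 16 adipocyte marker probes 14 were lower in the transgenic lungs, with a median log2 difference of -0.27, and 4 were lower at an unadjusted p under 0.05, beside 49.6% and 0.974% of all probes. Adipoq gave 1.20, 0.47, 0.95 and 0.83 in WT1 to WT4 and 0.25, 0.0018, 0.49 and -0.84 in TG1 to TG4. Its log2 difference was -0.89 ± 0.25 (SE), that of Fabp4 -0.87 ± 0.34 (SE), or -1.14 ± 0.35 (SE) by another probe, and that of Lpl, with 2 and 3 lungs left, -0.78 ± 0.20 (SE). By their brightest probes Ucp1 was at 0.15, Cd36 at 0.057, Cidea at -0.018, Lep at -0.046 and Adrb3 at -0.052. Lipe, Plin1, Plin4, Retn, Cidec and Cfd lay between -0.14 and -0.76, none with an unadjusted p under 0.05 by limma. Without TG4 the difference was -0.51 and -0.70 for the 2 Fabp4 probes, -0.61 for Adipoq and -0.18 for the mean of the adipocyte list, which was -0.32 over all lungs. The summed level of the 14 adipocyte genes measured, as raw signal over background, ran from 19660 to 37220 intensity units in wild-type and from 13530 to 28770 in transgenic lungs, and 13 of the 14 were well above background on all arrays. TG4, where Thrsp was lowest, was also the lung with the lowest Adipoq and Fabp4, while the summed level was lowest in TG1. Of 18 type II marker probes 17 were lower, with a median of -0.49, and 5 were lower at an unadjusted p under 0.05, again beside 49.6% and 0.974% of all probes. By the brightest probe Sftpa1 differed by -0.75 ± 0.29 (SE), Lyz2 by -0.76 ± 0.31 (SE) and Sftpd by -0.47 ± 0.16 (SE), whereas Abca3, which loads lipid into lamellar bodies, differed by -0.014 ± 0.10 (SE). Slc34a2 differed by -0.93 ± 0.27 (SE) and Lamp3 by -0.96 ± 0.37 (SE) by other probes, but by -0.50 ± 0.37 (SE) and -0.50 ± 0.38 (SE) by their brightest, where the difference was -0.12 for Slc34a2 without WT3 and -0.082 for Lamp3 without WT2. Without WT3, the difference was -0.44 for Sftpa1, -0.47 for Lyz2, -0.71 and -0.57 for those other probes of Slc34a2 and Lamp3, and -0.22 for the mean of the type II list, against -0.43 for that mean over all lungs. The summed type II level ran from 412700 to 569100 in wild-type and from 296200 to 485800 in transgenic lungs. In both lists 0 genes were never above background, and 0 of the probes had an adjusted p under 0.05 by limma. The part of these cells in the Fasn and Thrsp values was not tested.

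The other marker lists were shorter. Over all probes 49.6% were lower and 2.09% had an unadjusted p under 0.05 by limma. At that threshold 1 of 4 club cell probes was called, Scgb3a2. Of 5 endothelial probes 1 was called higher, Kdr, and 1 lower, Tek. Of 6 lymphocyte probes 2 were called higher, both of Ms4a1, and type I and hepatocyte probes had 0 calls. Of 7 type I marker probes 6 were lower with a median of -0.15, from Ager at -0.27 to Cav1 at 0.21. Without TG1 Ager turned to 0.083 and the mean of the type I list from -0.13 to 0.090, and without TG4 Cav1 turned to -0.065. Of 4 club cell probes 2 were lower, with Scgb3a1 at -0.71, or -0.23 without TG4 and -1.24 without TG1, beside Scgb3a2. Of 5 endothelial probes 2 were lower, with Kdr at 0.63 ± 0.20 (SE) and Tek at -0.44 ± 0.14 (SE). Of 4 hepatocyte probes 3 were lower, from Apoa1 at -0.13 to Fgb at 0.019. For Apoa1 the difference was -0.069 without WT4, and Fgb ran from -0.077 without TG3 to 0.15 without WT4. Of 6 lymphocyte probes 2 were lower, with 2 probes of Ms4a1 at 0.63 ± 0.25 (SE) and 0.49 ± 0.20 (SE) and Cd3e at -0.051. Without WT3 the Ms4a1 differences were 0.40 and 0.29, and that of Kdr was 0.46. The mean of the lymphocyte list differed by 0.21, or 0.067 without TG1, and that of the endothelial list by 0.15, or 0.023 without WT3.

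With the slide as a block, where 3.71% of all probes had an unadjusted p under 0.05 by limma, more list probes were called, 24 in place of 18, in a fit chosen for these lists after seeing the data. In cholesterol synthesis Pmvk was then called, at -0.36 with an unadjusted p of 0.0464 by limma. The adipocyte list had 5 probes called lower, Plin4 among them at -0.26 (-0.11 without WT1 and without a block), and the type II list 8, but 1 in each, a probe of Lpl and the brightest of Lamp3, rests on 1 slide with a pair and is no check. The type II calls also held the brightest Slc34a2 probe at -1.07, over only 2 slides with a pair. Type I markers then had Cav1 called higher at 0.54, again over 2 such slides, and lymphocyte markers had 3 probes called higher, with Cd79a at 0.42. Glycerolipid assembly and the lipogenic regulators had 1 call each, Lpin1 and Usf1, carbon and NADPH supply had 0, and elongation and desaturation had 0 in place of 1. In every list 0 probes had an adjusted p under 0.05 by limma in that fit.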

How the data were processed

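Whole lung RNA of 8 mice was read on 2-colour Agilent whole mouse genome arrays. The deposited scanner files give intensity per spot and channel, as median and as processed signals, and a log10 ratio of Cy5 over Cy3, made by Agilent Feature Extraction (10.10.1.1 per the file headers, 11.0.1.1 per the submitters' processing notes). The authors' annotated matrix holds log2 ratios of Cy5 over Cy3 from GeneSpring, and it supplied the gene symbols. Set against each array's own log10 ratio turned to log2, the matrix columns had slopes of 1.00 and r of 0.976 to 0.999, so their scale and direction are known, and their medians were -0.050 to 0.036 (the step that set them is not given in the sources used here).

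From the median signals the background was corrected with normexp (offset 50, unflagged spots), arrays were loess-normalized (span 0.3, 4 iterations), flagged and control spots were left out and spots of a probe averaged (R 4.3.3, limma 3.58.1). Genotypes were compared with lmFit and eBayes, with Benjamini-Hochberg adjustment over 32653 probes. The fit was tested on simulated data of 32653 probes, where it recovered 81% of 100 probes changed 2-fold and 99% of 100 changed 4-fold and called 12 unchanged probes, with folds larger than those of the members, so that it says nothing of the power for these. The number of arrays limits the precision.

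All member probes are named. Of the other lists, genes with an unadjusted p under 0.05 and the largest change in each direction were named by the brightest probe, and calls by another probe were named after their values were seen. A gene of the oxidation list that this rule names is not reported here. The 5 genes most like the members' mean were added. Members and lists were chosen with earlier results of these data known. Relations with list means carry no p-value. Replicate numbers are shared by the genotypes, and the correlation of same-numbered lungs was 0.32, 0.25, -0.085 and -0.21. The same number was the best match for replicates 1 and 2, which also share a slide, and not for 3 and 4. The numbers were not taken as pairs in the main fit, and 4 correlations cannot settle whether they are. The correlation of lungs on the same slide was 0.32, 0.25, 0.30 and 0.075. Alternatives covered background, normalization, flagged spots, filters, blocks, weights and left-out lungs.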

Additional observations from a re-analysis of the deposited data

Results flagged for a closer look

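In the Acaca probe A_52_P595124, 1 lung of each genotype stood apart from the other lungs of its genotype. WT3, at a log2 ratio of 0.45, was separated from its nearest wild-type lung by a gap of 0.863 of the wild-type range. TG1, at 0.72, was separated from its nearest transgenic lung by 0.942 of the transgenic range. Of 51 groups of lungs examined in this way, 2 met the criterion, and chance alone flags about 1 in 20 groups. The other 3 Acaca probes did not meet it in either genotype.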

How the results depend on the processing

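The count of member probes with an adjusted p under 0.05 was 0 and their median log2 difference was below 0 under all 27 alternatives. Over the lungs left out in turn 6 to 12 probes were lower, 6 of 12 without WT3, and the median was -0.15 to -0.0076. The count lower at an unadjusted p under 0.05 was 2. It was 0 with normexp offset 0, with the sample channel alone and with the replicate block, and 1 with median-centring, Agilent's processed signals, the authors' matrix, flagged spots kept, the methods' t-test or the mean over the probes of a gene. It was also 1 under the 3 combinations chosen after seeing the data: the slide block with flagged spots kept, the slide block on the authors' matrix and the replicate block on that matrix. With lungs left out it ranged from 0 (without TG4) to 2, and was 1 without WT1, WT2, WT3 or TG3. Without WT1, WT3, TG3 or TG4 the brighter Fasn probe had fewer than 2 values in a genotype and 12 probes were tested. The causes under the other alternatives were not tested.

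Small differences turned sign. Elovl6 was at -0.00087 with offset 0, -0.094 with median-centring and -0.14 with array weights, Srebf1 at -0.045 with median-centring and -0.10 with the sample channel alone, and Pnpla3 at 0.056 with the sample channel alone and 0.0099 with array weights. With lungs left out, the log2 difference by the brightest probe ranged from -0.11 to 0.059 for Acaca, from -0.027 to 0.11 for Srebf1 and from -0.24 to 0.12 for Elovl6. It ran from -0.18 to 0.11 for Pnpla3, from -0.33 to -0.018 for Me1 and from -0.48 to -0.060 for Scd2. The dimmer Me1 probe ran from -0.073 to 0.11. Thrsp stayed between -0.36 and -0.22.

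Against the pool, 6 probes above and 2 below became 3 and 1 with normexp fitted on all spots, 2 and 4 with median-centring and 3 and 1 with the mean over probes. With lungs left out they ranged from 3 (without WT3) to 6 and from 2 to 3. Thrsp over the pool was at -0.017 with median-centring, Srebf1 was at 0.086 there, and Scd2 ranged from -0.16 to 0.064.

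Pearson's r of Srebf1 with Elovl6 was -0.47 with median-centring, where it was 0.85 with Scd2 and 0.82 with Me1. With Thrsp it was -0.12 with processed signals, -0.32 on the authors' matrix and -0.23 with flagged spots kept, and -0.36 to 0.38 with lungs left out, and with Scd2 -0.43 to 0.69. For the oxidation list r was -0.0015 with offset 0, -0.019 with processed signals, -0.11 without genotype means and -0.16 to 0.36 with lungs left out, but 0.52 with median-centring and 0.43 with normexp on all spots. For adipocyte markers it was -0.00051 to 0.43 with lungs left out and 0.60 with normexp on all spots. With lungs left out r was 0.71 to 0.93 for cholesterol synthesis and 0.67 to 0.94 for type II markers. Of 16 alternatives, the value was marked as moved under 5 for cholesterol synthesis and under 9 for type II markers, and the sign turned under 0. The count of probes of the other lists at an unadjusted p under 0.05 was 18, against 11 on the authors' matrix and 12 to 29 with lungs left out, 29 being without WT4. Flagged spots limit Fasn, Scd1 and Acly, whose bright probes kept 4, 1 and 1 arrays.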
